A study of Mus musculus with 35 samples.

Results

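The 39 genes described here are the transcription factor gene Atf4 and genes tied to it in the response of cells to amino acid shortage. They comprise 6 stress transcription factors, 5 feedback and effector genes, 6 enzymes of serine and one-carbon metabolism, 5 other amino acid enzymes, 5 amino acid transporters and 12 cytosolic tRNA synthetases. They were named by symbol, with earlier results of these data known, and were matched by Entrez identifier to the deposited expression table. All 39 of 39 had a row among its 24454 genes, and all 39 passed the filter of a normalized count of at least 10 in 3 or more libraries, which 12682 genes passed in all. The tRNA synthetase genes are written in their short form (Gars for Gars1).

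RNA was measured in C57BL/6 mouse bone marrow that had been transplanted and carried 1 of 3 leukemia fusion genes under regulatable expression, NUP98-DDX10, NUP98-JARID1A or NUP98-NSD1, each joining part of the nucleoporin NUP98 to part of another protein. Doxycycline at 4 mg/ml for 3 or 5 days went with loss of the fusion transcript. Each fusion had 4 untreated libraries, 3 after 3 days and 3 after 5 days of doxycycline. Of the 4 untreated libraries, 1 is titled day 3 and 3 are titled day 5, and they were pooled as 1 group. A further 3 untreated libraries are titled as controls. Their genotype label lists NUP98/NSD1, NUP98/JARID1A and a further entry written as NUP98/DDX40, NUP98/DDX41 or NUP98/DDX42, so what the control cells carry is not known from the labels. All cells were sorted as GFP and CD45.2 positive, per the labels, which name neither the promoter that drives the fusions nor the number of primary leukemias. The labels number libraries and not animals, so the p-values below measure only the spread between these samples.

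Cells short of amino acids, or with misfolded protein, phosphorylate the translation factor eIF2, which slows most protein synthesis while ATF4 is made from its own mRNA at a higher rate. ATF4 then raises the transcription of genes that make, import and charge amino acids, and of feedback genes that end or limit the response. Because ATF4 is controlled largely at translation, its mRNA level is not a measure of its protein. In blood-forming cells, fast-growing progenitors make heavy use of serine, one-carbon units and amino acid import.

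ATF4 pairs with C/EBP proteins on a composite DNA element, TGATGCAA, or TTGCATCA read on the other strand. RefSeq promoters of the GRCm38.p6 build, 250 bases before to 50 bases after the annotated start, were at hand for 32 of the 39 genes. The element occurred in 9 of the 32 (28.1%), against 1.03% of 27025 genes and 0.788% of the 10158 genes that passed the filter and had a promoter. With the sixth base left free (TGATGNAA or TTNCATCA, which includes the exact form), 12 members (37.5%) held a match, against 2.81% of the genes that passed the filter. The stretches below are the matches that lie wholly before the start, 5′ to 3′ on the gene's own strand, with the element in capitals, and they are shown because the results turn on several of these genes.
Atf3, chr1:191183416-191183463, minus strand: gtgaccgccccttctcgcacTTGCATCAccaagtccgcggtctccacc
Nupr1, chr7:126625553-126625600, minus strand: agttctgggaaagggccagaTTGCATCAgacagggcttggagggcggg
Chac1, chr2:119351029-119351076, plus strand: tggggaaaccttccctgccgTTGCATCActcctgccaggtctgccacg
Pycr1, chr11:120643824-120643871, minus strand: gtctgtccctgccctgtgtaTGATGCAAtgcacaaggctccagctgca
Slc7a11, chr3:50443633-50443699, minus strand: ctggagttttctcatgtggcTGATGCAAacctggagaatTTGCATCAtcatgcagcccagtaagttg
Aars, chr8:111033710-111033757, plus strand: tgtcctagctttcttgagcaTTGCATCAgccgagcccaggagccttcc
Tars, chr15:11399659-11399693, minus strand: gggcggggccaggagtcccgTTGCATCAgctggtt
Asns, chr6:7693210-7693252, minus strand: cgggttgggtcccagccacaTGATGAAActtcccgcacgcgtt
Gars, chr6:55037951-55037998, plus strand: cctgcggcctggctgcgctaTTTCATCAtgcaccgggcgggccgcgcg

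For Slc7a11 and Aars the RefSeq start used lies inside the span that the gene annotation gives the gene. Slc7a11 held a pair of exact elements, and Asns and Gars held the looser form. Yars and Iars had an exact match, and Trib3 a looser one, after the start. A match is a description of letters and not a bound site. Of the 9 genes with the exact element, 5 rose at day 3 averaged over the fusions (Nupr1, Chac1, Pycr1, Iars and Yars), and of the 23 with a promoter but no exact element 15 rose.

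The libraries held 12043487 to 28903870 reads in genes. The fusion transcript fell in every model, from 9003–14121 normalized counts untreated to 3.19–7.29 at day 3 and 4.3–8.01 at day 5 for NUP98-DDX10, from 3042–3489 to 90.02–99.8 and 60.2–100.3 for NUP98-JARID1A, and from 52599–58498 to 47.3–52.01 and 40.3–58.1 for NUP98-NSD1. The eGFP transcript, from 7445 to 17735 in the untreated leukemias, ran from 1.06 to 400.4 on doxycycline and 13.9–210.3 in the controls, although all cells are labelled as sorted for GFP. Markers of other cell types were low in the leukemias: summed over each list, 8 erythroid markers reached at most 1049, 8 B and plasma cell markers at most 967 and 7 T and NK cell markers (of 8 listed) at most 953. In the controls the same sums were 7561–73281, 25666–208118 and 2181–4955. Hba-a1 and Hbb-bs were under 10 in every library, and Hba-a1 was at 0 in the controls too, so they are no measure of erythroid RNA here. Control replicate 3 stood apart from the other controls, with a summed neutrophil marker level of 250561 against 2691378 and 2909697.

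Doxycycline also moved markers of cell maturity and of other cell types, and their values stand here beside every comparison below. Of 6 progenitor markers, 5 fell at day 3 and 6 at day 5 when the 3 fusions were averaged. With NUP98-DDX10 their summed level was 11473–14913 untreated, 6801–8713 at day 3 and 3653–5005 at day 5. For NUP98-JARID1A it was 13203–18542, then 4437–6169, then 1579.7–1888. For NUP98-NSD1 it was 7203–9026, then 4252–5418, then 1486–2088. The groups did not overlap in any of the 3 models. Of 8 monocyte and macrophage markers, 3 rose at day 3 and 7 at day 5, and their sum went from 28712–30949 untreated to 22783–26021 at day 5 with NUP98-DDX10, from 18845–26119.9 to 57341–70975 with NUP98-JARID1A and from 23001–25146 to 32210.0–49931 with NUP98-NSD1. The sum thus went down in the first model and up in the others, while its day 3 ranges were 24586–27541, 31075–34139.5 and 26064–30929.5 in the same order. Of 8 neutrophil markers none passed the test at day 3 in limma (1 at an unadjusted p under 0.05, 0 with edgeR and 1 with DESeq2) and 7 rose at day 5. Their sum went from 42329.6–58079 untreated to 24875–47452 and 43702–73345 at days 3 and 5 with NUP98-DDX10, which overlapped. Under NUP98-JARID1A the sum was 150111–200699.8 at first, 207780.1–341546 at day 3 and 508901–821834 at day 5, and with NUP98-NSD1 from 36558–80068 to 71848–165423 and 106889–233983. Of 8 B and plasma cell markers 2 fell at each day, as did 2 of 7 T and NK cell markers. Of 6 erythroid markers none passed at day 3 in limma, and 3 rose and 1 fell at day 5 (0 and 1 with edgeR). With NUP98-JARID1A the T and NK sum went from 666–953 untreated to 39.9–62.9 and 18.1–29.0 at days 3 and 5. The B and plasma cell sum went from 106–161 to 15.7–19.1 and 6.01–12.9 with NUP98-DDX10, and from 370–706 to 92.9–142 and 43.1–434 with NUP98-NSD1. The part of these shifts in the changes of the 39 genes was not tested. In bulk RNA, fewer cells of a type and less RNA per cell cannot be told apart.

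The first comparison asks what the genes did after 3 days of doxycycline, when the fusion transcript was low. No control library received doxycycline, so the drug itself and the loss of the fusion cannot be told apart in any comparison here. In the mean of the 3 fusions, 23 of the 39 genes rose and none fell, with 25 at an unadjusted p under 0.05 and 24 rising and none falling with either edgeR or DESeq2. Over all genes tested 8.67% rose and 9.88% fell, so the members' share of rises (59.0%) stood well above the background. The genes that rose were 4 of 6 transcription factors (Atf4, Atf5, Ddit3, Nupr1), 4 of 5 effectors (Trib3, Chac1, Sesn2, Ddit4), 5 of 6 serine and one-carbon enzymes (Phgdh, Psat1, Shmt2, Mthfd2, Mthfd1l), Asns and Pycr1 among the other enzymes, the transporter subunits Slc7a5 and Slc3a2, and 6 of 12 synthetases (Gars, Nars, Cars, Sars, Iars, Yars). The median log2 fold change of the members was 0.27, on the scale log2(normalized count + 1), against a median of about 0 over all genes. The count was 10, all higher, when each untreated library was matched by its titled day, which leaves 1 untreated library per fusion for day 3. The genes that kept their call then were Atf5, Ddit3, Ddit4, Trib3, Chac1, Sesn2, Psat1, Mthfd2, Pycr1 and Gars, so the day 3 calls given below for the other members ended under that matching. The count was 7 without NUP98-JARID1A (Phgdh, Psat1, Mthfd2, Mthfd1l, Asns, Pycr1 and Gars) and 12 without NUP98-NSD1. Calls over all genes went from 2353 to 1017 and 1588 in the same order. Without NUP98-NSD1 the calls of Atf4, Ddit3, Nupr1, Chac1, Sesn2, Psat1, Shmt2, Mthfd1l, Asns, Slc7a5, Slc3a2 and Yars were lost, and Gpt2 was gained. The count was 22 without NUP98-DDX10 (2507 over all genes), where Cars and Ddit4 were lost and Gpt2 was gained. Leaving out 1 library at a time gave 18 to 26 calls.

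The 3 fusions differed in their day 3 counts. With NUP98-DDX10, no member passed the test in limma, 6 had an unadjusted p under 0.05, edgeR called 0 and DESeq2 called 1. The background was equally thin there, with 0.134% of all genes higher and 0.946% lower. With NUP98-JARID1A, 17 members rose and none fell, against 8.11% of all genes higher and 7.61% lower, and the median change was 0.41. With NUP98-NSD1, 8 members rose (Atf4, Ddit3, Psat1, Shmt2, Mthfd2, Mthfd1l, Asns and Gars) and none fell, against backgrounds of 4.55% and 4.57%, and the median change was 0.34. The count for NUP98-JARID1A fell to 10 without its day 3 replicate 1, 9 without its day 3 replicate 3 and 11 without its untreated replicate 1 or 2. For NUP98-NSD1 it was 5 without day 3 replicate 1, day 3 replicate 2 or untreated replicate 4, 4 without day 3 replicate 3, and 14 without control replicate 3, which enters only through the shared estimate of the spread. With the titled days matched, 7 members rose with NUP98-JARID1A and 1 with NUP98-NSD1.

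**Figure D1:**
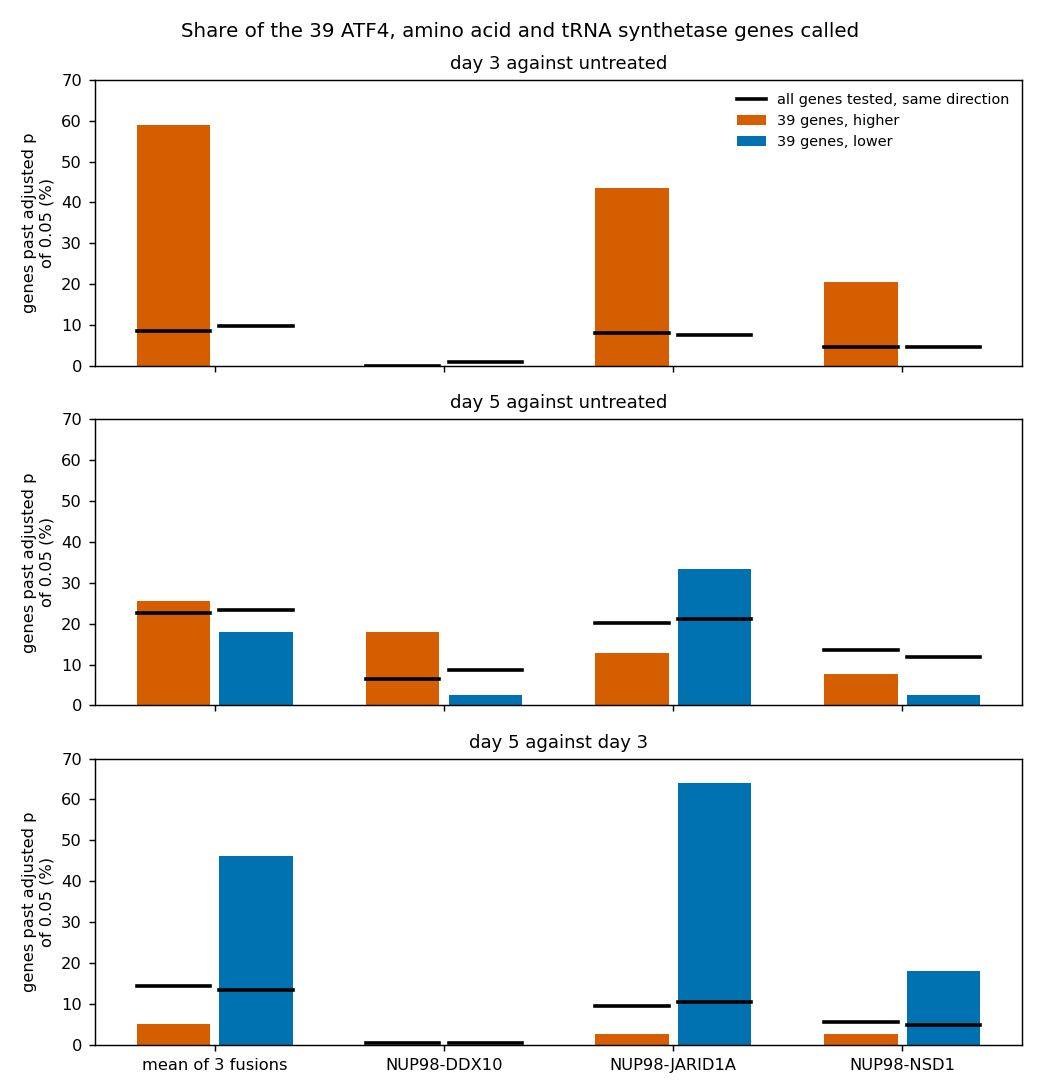
Percent of the 39 genes past an adjusted p of 0.05 (bars, higher in orange and lower in blue) and of all 12682 genes tested in the same direction (black lines), for the mean of the 3 fusions and each fusion, in the 3 comparisons. At day 3 the orange bars stand above their lines in the mean, NUP98-JARID1A and NUP98-NSD1, and at day 5 against day 3 the blue bars do in the same 3 places.

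After 5 days members were called in both directions, as were genes at large. In the mean of the fusions 10 members were higher than untreated (Atf3, Cebpg, Nupr1, Ddit4, Trib3, Sesn2, Ppp1r15a, Mthfd2, Gars and Nars) and 7 were lower (Phgdh, Shmt2, Aldh18a1, Slc7a1, Eprs, Iars and Yars). The background was 22.6% of all genes higher and 23.4% lower, so these shares of 25.6% and 17.9% stood near or below it. The day 5 comparison shares its untreated libraries with that of day 3. With NUP98-DDX10, 7 members were higher (Ddit4, Trib3, Mthfd2, Pycr1, Cars, Gars and Nars) and Aldh18a1 was lower, against 6.49% and 8.63% of all genes. With NUP98-JARID1A, 5 were higher (Atf3, Nupr1, Trib3, Sesn2 and Mthfd2) and 13 lower, against 20.1% and 21.2%. With NUP98-NSD1, 3 were higher (Atf3, Nupr1 and Sesn2) and Aldh18a1 was lower, against 13.5% and 11.9%. Without NUP98-JARID1A, 8 members were higher and 1 lower in the mean, and the calls of Nupr1, Sesn2, Ppp1r15a, Phgdh, Shmt2, Slc7a1, Eprs, Iars and Yars were lost. Calls over all genes went from 5833 to 3800 there.

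The NUP98-DDX10 count of 8 at day 5 moved with single libraries. It was 2 without day 5 replicate 3, 3 without day 5 replicate 2 or untreated replicate 1, 4 without day 5 replicate 1 or untreated replicate 4, and 5 without untreated replicate 2 or 3. It was also 2 with the titled days matched and 5 with no filter on low values. Of the named NUP98-DDX10 calls, edgeR lost Ddit4 and Trib3, and DESeq2 and a pseudocount of 10 lost Trib3. Quantile normalization lost Nars, and the replicate block lost Ddit4, Mthfd2 and Trib3. DESeq2 and the block gained Psph and Tars. The NUP98-NSD1 count of 4 at day 5 was 2 without day 5 replicate 2 or 3 and 9 without control replicate 3.

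Between day 3 and day 5 most of the members that moved went down. In the mean of the fusions 18 fell and 2 rose (Atf3 and Nupr1), with a median log2 fold change of -0.27, while 14.3% of all genes rose and 13.4% fell. The 46.2% of members that fell stood above that background. Of the 18, 12 were genes that had risen at day 3: Atf5, Ddit3, Phgdh, Psat1, Shmt2, Mthfd2, Mthfd1l, Asns, Pycr1, Slc7a5, Iars and Yars. This comparison uses no untreated library, but it shares the day 3 libraries with the first, and they enter the 2 comparisons with opposite sign. The other 6 that fell were Aldh18a1, Cth, Slc7a1, Eprs, Lars and Mars. With NUP98-DDX10 no member passed in limma (4 at an unadjusted p under 0.05, and 0 with edgeR and with DESeq2), against 0.434% of all genes higher and 0.497% lower. With NUP98-JARID1A, 25 fell and 1, Atf3, rose, against 10.4% lower and 9.54% higher, and the median was -0.52. With NUP98-NSD1, 7 fell (Phgdh, Shmt2, Mthfd2, Mthfd1l, Asns, Aldh18a1 and Iars) and Atf3 rose, against 4.95% lower and 5.66% higher.

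The counts at day 5 against day 3 leaned on NUP98-JARID1A and on single libraries. The mean count of 20 was 5 without NUP98-JARID1A (Phgdh, Shmt2, Asns, Aldh18a1 and Iars) and 13 without NUP98-NSD1. Calls over all genes went from 3511 to 1383 and 2025 in the same order. For NUP98-JARID1A the member count was 16 without day 3 replicate 3. For NUP98-NSD1, where 8 were called, it was 0 without day 5 replicate 2, 2 without day 3 replicate 2, 3 without day 3 replicate 3, 4 without day 5 replicate 3, 5 without day 3 replicate 1 and 14 without control replicate 3. For NUP98-DDX10 it was 1 without control replicate 3.

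A direct test of the difference between the fusions gave fewer calls. At day 3 the effect of doxycycline differed between the fusions for 5 members (Mthfd2, Nupr1, Trib3, Atf5 and Atf4), against 7.05% of all genes. At day 5 it differed for 13 members, against 25.9%, and for day 5 against day 3 it differed for 8 (Mthfd2, Phgdh, Gars, Shmt2, Mthfd1l, Atf4, Slc7a5 and Yars), against 1.85%. The day 3 count was 2 without NUP98-JARID1A day 3 replicate 3, 3 without NUP98-JARID1A day 3 replicate 1, untreated replicate 1 or 2, or NUP98-DDX10 day 3 replicate 2, 8 without NUP98-JARID1A day 5 replicate 1 and 12 without control replicate 3. The count for day 5 against day 3 was 5 without NUP98-DDX10 day 3 replicate 3, day 5 replicate 2 or 3, or NUP98-JARID1A day 3 replicate 1, and 14 without control replicate 3. Overlap of groups, given below, is no test. In the order NUP98-DDX10, NUP98-JARID1A and NUP98-NSD1, members wholly above untreated at day 3 numbered 10, 22 and 19. The shares of all genes were 9.6%, 13.4% and 19.7%. From day 3 to day 5, members wholly below numbered 2, 26 and 19, against 13.0%, 15.1% and 19.8%. At day 5, 11, 9 and 10 lay above untreated, against 18.7%, 19.3% and 21.8%. Those below were 1, 13 and 5, against 19.4%, 18.4% and 19.7%.

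**Figure D2:**
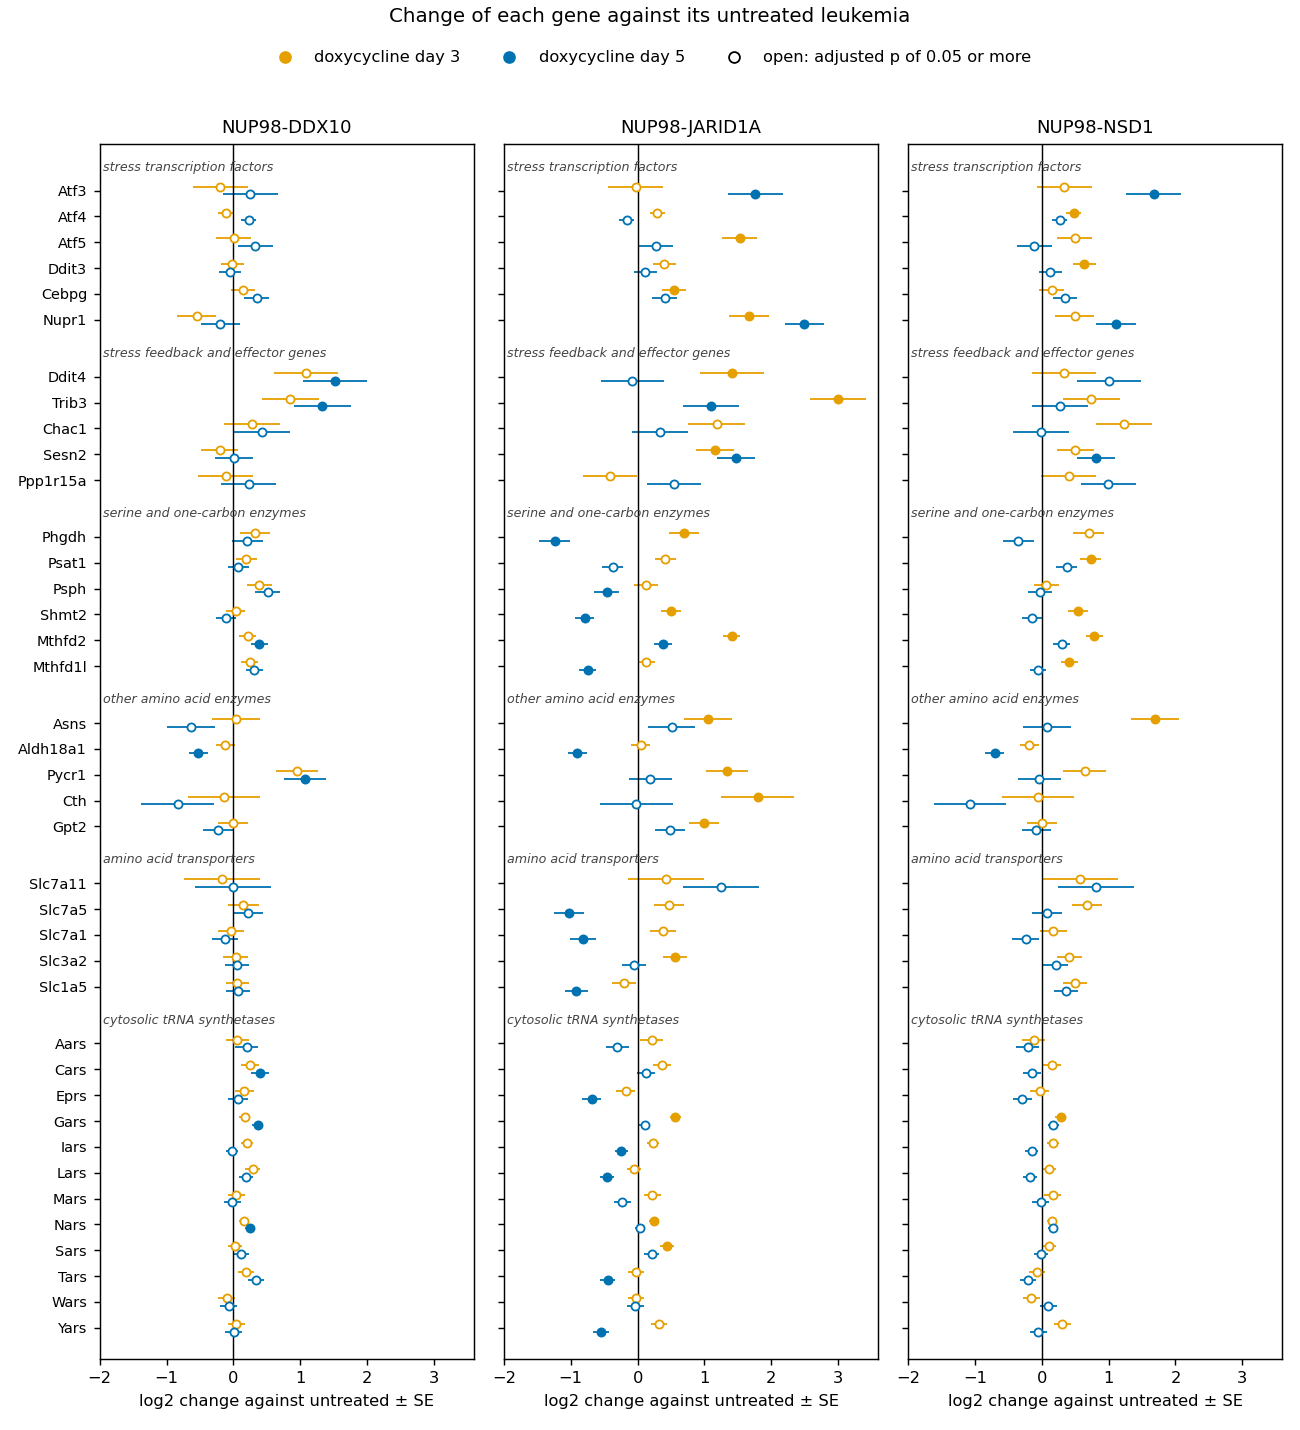
Log2 change against untreated (symbols, with the standard error as bars) of each of the 39 genes in each fusion, at day 3 in orange and day 5 in blue, and open where the adjusted p is 0.05 or more. With NUP98-JARID1A the orange symbols of most genes lie to the right of the blue ones, while with NUP98-DDX10 all day 3 symbols are open.

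Among the transcription factors, Atf4 itself, at chr15:80255184-80257545 in GRCm38, moved little. Atf4 with NUP98-DDX10 stood at 3427, 3059.6, 2914 and 3326 in the untreated libraries, 3193, 2986 and 2659 at day 3 and 3496, 3957 and 3722 at day 5. Under NUP98-JARID1A, Atf4 counted 3952, 4199, 5041 and 4690.3 untreated, 6353, 4759 and 5359 at day 3 and 3362, 4204 and 4468 at day 5. In NUP98-NSD1 cells, Atf4 had values of 2663, 2723, 2513 and 2596 untreated, 3573, 3738 and 3654 at day 3 and 3418, 2918 and 3179 at day 5. Day 3 values lay above all untreated values with NUP98-NSD1 alone, and day 5 values lay above both other groups with NUP98-DDX10. In the mean of the fusions the log2 change was 0.22 ± 0.06 (SE) at day 3, with a limma adjusted p of 0.0174, which became 0.0524 without NUP98-JARID1A day 3 replicate 1. The day 3 effect differed between the fusions (adjusted p = 0.0455, F-test in limma), a call lost in 20 of the 33 fits that each left out 1 library. At day 5 against day 3 the log2 change was 0.34 with NUP98-DDX10, -0.45 with NUP98-JARID1A and -0.21 with NUP98-NSD1, and this difference had an adjusted p of 0.0237 (lost in 5 of the 33 fits).

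Atf5 encodes a related leucine-zipper factor. Atf5 with NUP98-DDX10 stood at 91.9, 70.9, 57.3 and 78.5 in the untreated libraries, 74.96, 61.6 and 86.4 at day 3 and 76.8, 92.5 and 111 at day 5. Under NUP98-JARID1A, Atf5 counted 116, 115, 208 and 226 untreated, 499.9, 378 and 509.5 at day 3 and 130.1, 225 and 237 at day 5. In NUP98-NSD1 cells, Atf5 had values of 107, 180.2, 118 and 134 untreated, 162, 235 and 171 at day 3 and 131, 89.4 and 155 at day 5. Under NUP98-JARID1A the day 3 values stood above every untreated and every day 5 value, and with NUP98-DDX10 all 3 groups overlapped. Averaged over the fusions, the log2 change was 0.67 ± 0.15 at day 3 (adjusted p = 0.00217, limma) and -0.51 ± 0.16 from day 3 to day 5 (adjusted p = 0.0185, lost without NUP98-NSD1 day 5 replicate 2). The day 3 effect was 1.53 with NUP98-JARID1A, 0.49 with NUP98-NSD1 and 0.00 with NUP98-DDX10, and differed between them (adjusted p = 0.0237, F-test, lost in 5 of 33 fits).

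Ddit3 encodes CHOP, a factor tied to cell death after long stress. It lies at chr10:127290793-127296291 and overlaps the end of Mars, at chr10:127296221-127311786, and the use of strand in counting is not given in the sources used here. Ddit3 with NUP98-DDX10 stood at 63.3, 84.9, 101 and 89.9 in the untreated libraries, 71.6, 82.8 and 94.7 at day 3 and 80.1, 77.4 and 84.1 at day 5. Under NUP98-JARID1A, Ddit3 counted 113, 119, 131 and 115 untreated, 149.6, 118 and 225 at day 3 and 131, 133 and 125 at day 5. In NUP98-NSD1 cells, Ddit3 had values of 98.4, 99.5, 112 and 96.1 untreated, 145, 171 and 159 at day 3 and 90.4, 119 and 126 at day 5. Only with NUP98-NSD1 did the day 3 libraries separate from both other groups. Over the 3 fusions the log2 change was 0.34 ± 0.10 at day 3 (adjusted p = 0.0147, limma). The change of -0.28 ± 0.10 from day 3 to day 5 (adjusted p = 0.0485) was lost in 25 of the 33 fits with 1 library left out.

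Atf3 and Nupr1 ran the other way and were the members that rose from day 3 to day 5. Atf3 encodes a stress-induced repressor and activator of transcription. Atf3 with NUP98-DDX10 stood at 74.5, 58.1, 57.3 and 90.8 in the untreated libraries, 73.8, 59.5 and 48.9 at day 3 and 96.6, 77.4 and 74.1 at day 5. Under NUP98-JARID1A, Atf3 counted 24.3, 71.3, 51.1 and 88.04 untreated, 55.3, 74.2 and 33.9 at day 3 and 196, 158 and 195 at day 5. In NUP98-NSD1 cells, Atf3 had values of 56.5, 106, 221 and 131 untreated, 170.0, 176 and 102 at day 3 and 198, 559.5 and 453 at day 5. At day 5 the values exceeded all day 3 values in every model, and with NUP98-JARID1A all untreated values too. With NUP98-DDX10 the gap was only 74.1 against 73.8, and Atf3 did not pass from day 3 to day 5 there. The mean log2 change was 0.04 ± 0.24 at day 3 (adjusted p = 0.944, limma) and 1.19 ± 0.25 from day 3 to day 5 (adjusted p = 0.00082).

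Nupr1 encodes a small stress-induced nuclear protein. Nupr1 with NUP98-DDX10 stood at 71.5, 47.7, 60.2 and 66.2 in the untreated libraries, 39.2, 60.5 and 29.1 at day 3 and 39.5, 67.8 and 55.1 at day 5. Under NUP98-JARID1A, Nupr1 counted 27.3, 40.6, 27.1 and 40.6 untreated, 105, 103 and 115 at day 3 and 188, 174 and 215 at day 5. In NUP98-NSD1 cells, Nupr1 had values of 87.2, 76.96, 58.95 and 87.7 untreated, 110.3, 137 and 84.6 at day 3 and 86.1, 216 and 249.9 at day 5. With NUP98-JARID1A the 3 groups stepped up without overlap, and in the other models they overlapped. Its day 3 effect was 1.67 with NUP98-JARID1A, 0.50 with NUP98-NSD1 and -0.55 with NUP98-DDX10, and the fusions differed (adjusted p = 0.00358, F-test). The mean change at day 3 was 0.54 ± 0.17 (adjusted p = 0.0264, limma), which rested on NUP98-JARID1A: it was -0.0288 without that fusion, and the call was also lost without day 3 replicate 2 of NUP98-NSD1 or of NUP98-DDX10. The rise from day 3 to day 5 was 0.60 ± 0.18 (adjusted p = 0.0143). Cebpg, a partner of ATF4 on the composite element, passed only at day 5 among the mean comparisons of doxycycline (0.36 ± 0.11, adjusted p = 0.00584, limma), with group means from 456 ± 90.1 (SD, n = 4) in untreated NUP98-JARID1A to 1196 ± 13.2 (SD, n = 3) in NUP98-NSD1 at day 5.

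**Figure D3:**
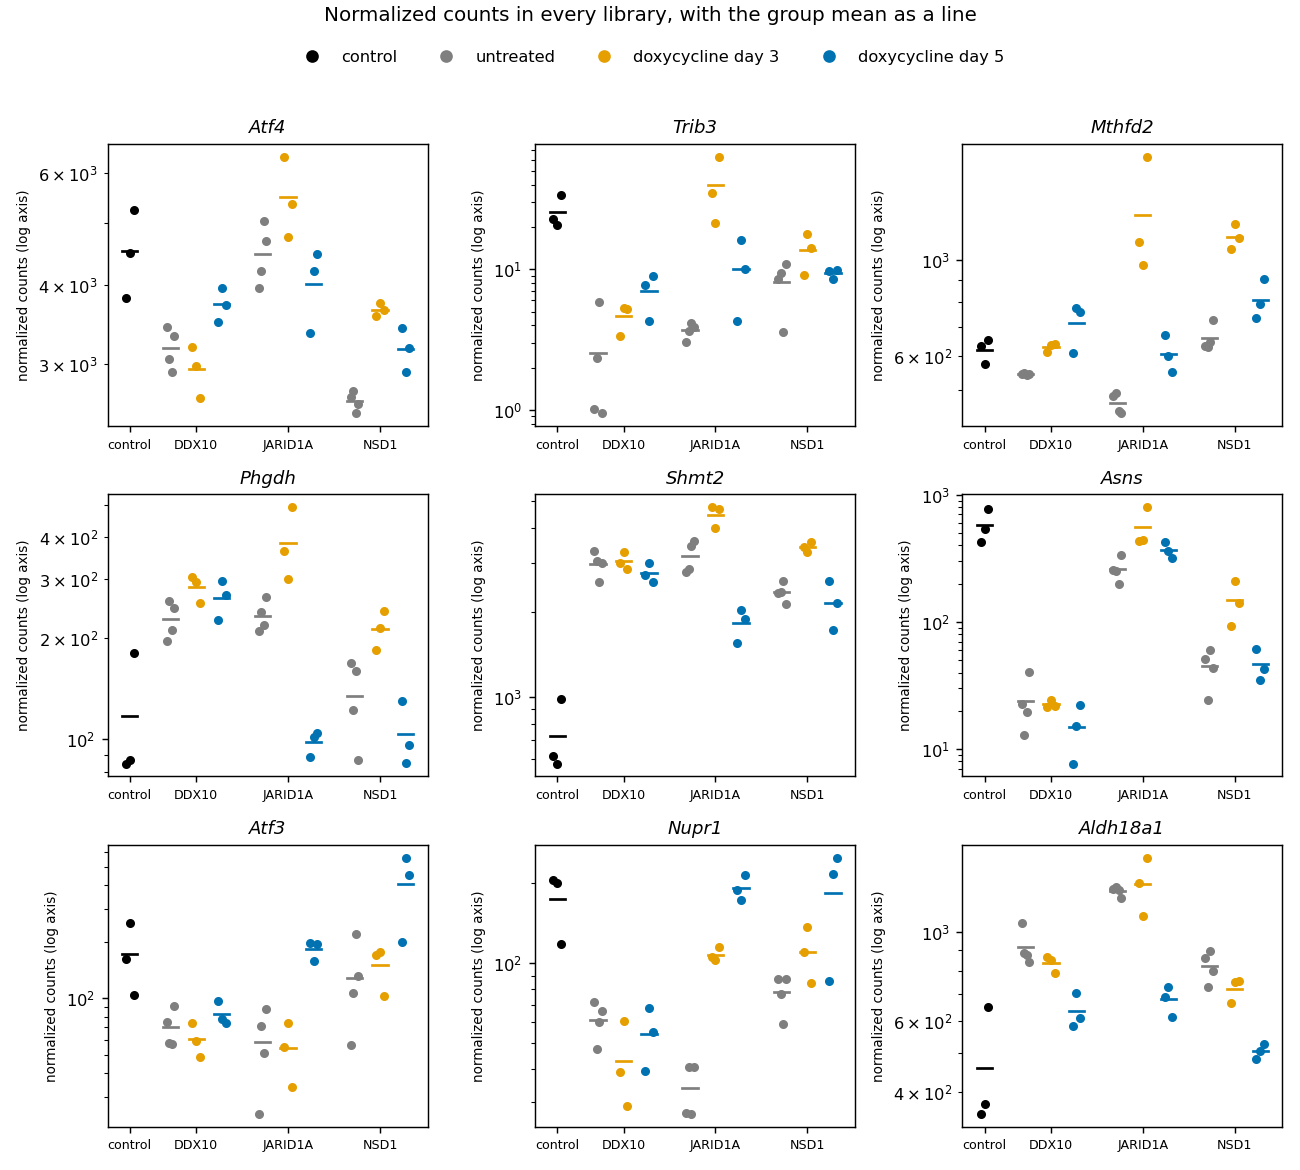
Normalized counts on a log axis in every library (points) with the group mean (line), for 9 genes, in the controls and in untreated (grey), day 3 (orange) and day 5 (blue) libraries of each fusion. Trib3, Mthfd2 and Phgdh peak at day 3 with NUP98-JARID1A, Atf3 and Nupr1 are highest in that model at day 5, and Aldh18a1 at day 5 lies below the other groups of its own model in all 3 models.

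Of the feedback and effector genes, Trib3, a pseudokinase induced by ATF4 that feeds back on it, had the largest mean change at day 3 of the 39 genes. Trib3 with NUP98-DDX10 stood at 1.02, 2.33, 5.82 and 0.946 in the untreated libraries, 3.36, 5.31 and 5.2 at day 3 and 7.68, 4.3 and 9.01 at day 5. Under NUP98-JARID1A, Trib3 counted 3.03, 3.61, 4.17 and 3.87 untreated, 34.9, 21.3 and 62.97 at day 3 and 4.26, 16.1 and 10.03 at day 5. In NUP98-NSD1 cells, Trib3 had values of 8.55, 9.39, 3.57 and 10.9 untreated, 9.12, 17.9 and 14.3 at day 3 and 9.69, 8.56 and 9.84 at day 5. Under NUP98-JARID1A every day 3 value exceeded all others of that model, and in the other models the groups overlapped at these low counts. The day 3 log2 change was 2.997 ± 0.42 with NUP98-JARID1A, 0.74 ± 0.42 with NUP98-NSD1 and 0.85 ± 0.42 with NUP98-DDX10, and 1.53 ± 0.25 in the mean (adjusted p = 5.56e-05, limma). The fusions differed (adjusted p = 0.0224, F-test), a call lost without NUP98-JARID1A day 3 replicate 1 or 3, with an adjusted p of up to 0.0995. From day 3 to day 5 Trib3 fell with NUP98-JARID1A (-1.90 ± 0.45, adjusted p = 0.00378).

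Chac1 encodes an enzyme that degrades glutathione. Chac1 with NUP98-DDX10 stood at 2.04, 8.14, 9.71 and 8.52 in the untreated libraries, 8.95, 8.5 and 6.25 at day 3 and 5.49, 8.61 and 14.02 at day 5. Under NUP98-JARID1A, Chac1 counted 54.6, 76.8, 78.3 and 58.05 untreated, 199, 100.2 and 172 at day 3 and 48.02, 103 and 118 at day 5. In NUP98-NSD1 cells, Chac1 had values of 5.99, 18.8, 13.4 and 7.52 untreated, 18.2, 27.8 and 33.8 at day 3 and 10.8, 9.52 and 10.8 at day 5. The day 3 values stood above the untreated ones with NUP98-JARID1A and above the day 5 ones with NUP98-NSD1. The mean rise at day 3 was 0.90 ± 0.24 (adjusted p = 0.0101, limma), and no single fusion passed in limma. With NUP98-JARID1A, Chac1 passed at day 3 with edgeR, with DESeq2, with a pseudocount of 10 and without the controls, and with NUP98-NSD1 it passed with DESeq2 and without the controls. The mean call was lost without NUP98-JARID1A or without NUP98-NSD1. The change from day 3 to day 5 was -0.64 ± 0.26 (adjusted p = 0.0655).

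Ppp1r15a encodes GADD34, the phosphatase subunit that removes the phosphate from eIF2. Ppp1r15a with NUP98-DDX10 stood at 263, 179, 190.3 and 235 in the untreated libraries, 207, 181 and 205 at day 3 and 244, 290.4 and 223 at day 5. Under NUP98-JARID1A, Ppp1r15a counted 120.3, 249, 401 and 359 untreated, 254, 165 and 169.5 at day 3 and 275, 326 and 587 at day 5. In NUP98-NSD1 cells, Ppp1r15a had values of 110.3, 166, 167 and 159.5 untreated, 207, 183 and 201 at day 3 and 309, 372 and 230.2 at day 5. Day 5 exceeded day 3 in all 3 models without overlap, and exceeded untreated only with NUP98-NSD1. The log2 change was -0.04 ± 0.24 at day 3 (adjusted p = 0.931, limma) and 0.59 ± 0.24 at day 5 (adjusted p = 0.043), a call lost in 10 of the 33 fits. The day 5 call was also lost with edgeR, with no filter on low values, with titled days matched, and without NUP98-NSD1 or NUP98-JARID1A. The change of Ppp1r15a from day 3 to day 5 was 0.63 ± 0.25 (adjusted p = 0.0625, limma).

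Sesn2 and Ddit4 encode inhibitors of the growth kinase mTORC1. With NUP98-DDX10 Sesn2 averaged 240.0 ± 28.3 (SD, n = 4) untreated, 208 ± 26.3 at day 3 and 241 ± 24.9 at day 5 (n = 3 each), and all groups overlapped. It averaged 288 ± 99.3 (SD, n = 4) untreated, 628 ± 210.2 at day 3 and 807 ± 338 at day 5 (n = 3 each) with NUP98-JARID1A. With NUP98-NSD1 it averaged 139 ± 23.7, 196 ± 21.00 and 243 ± 20.6, without overlap. In the mean of the fusions Sesn2 rose by 0.48 ± 0.16 and 0.77 ± 0.16 on the log2 scale (adjusted p = 0.0369 and 0.000347, limma). The first of these calls was lost in 10 of the 33 fits, without NUP98-NSD1 and with no filter on low values, and both were lost without NUP98-JARID1A. Ddit4 rose at day 3 by 0.94 ± 0.28 in the mean (adjusted p = 0.0165, lost without NUP98-DDX10 day 3 replicate 3) and at day 5 by 0.82 ± 0.28 (adjusted p = 0.017). The day 3 call was also lost without the NUP98-DDX10 fusion and without NUP98-JARID1A. The day 5 call was lost without NUP98-DDX10, without NUP98-NSD1 and with titled days matched. With NUP98-DDX10, the single fusion in which Ddit4 passed at day 5, it averaged 107 ± 61.4 untreated, 251 ± 231 at day 3 and 262 ± 41.4 at day 5. That call in NUP98-DDX10 was lost with edgeR, with the replicate block and with titled days matched. With NUP98-JARID1A, Ddit4 averaged 43.03 ± 8.37 untreated, 121 ± 46.5 at day 3 and 43.6 ± 20.8 at day 5, while with NUP98-NSD1 it averaged 59.8 ± 7.13, 83.2 ± 44.4 and 122 ± 23.4.

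Of the 6 serine and one-carbon enzymes, 5 rose at day 3 and 5 fell from day 3 to day 5. Mthfd2, a mitochondrial folate enzyme, had the smallest p of the 39 genes at day 3. Mthfd2 with NUP98-DDX10 stood at 542, 545, 539.7 and 542 in the untreated libraries, 611, 635 and 639 at day 3 and 607, 774 and 758 at day 5. Under NUP98-JARID1A, Mthfd2 counted 484, 491, 445 and 440.2 untreated, 1104, 973 and 1741 at day 3 and 671, 599 and 550.3 at day 5. In NUP98-NSD1 cells, Mthfd2 had values of 631, 627, 645 and 727 untreated, 1063, 1214 and 1124 at day 3 and 734, 789.8 and 905 at day 5. In all 3 models each doxycycline library stood above every untreated one, and with NUP98-JARID1A and NUP98-NSD1 day 3 stood above day 5 as well. The day 3 log2 change was 0.21 ± 0.13 with NUP98-DDX10, 1.41 ± 0.13 with NUP98-JARID1A, 0.79 ± 0.13 with NUP98-NSD1 and 0.80 ± 0.07 in the mean (adjusted p = 1.6e-08, limma). From day 3 to day 5 it changed by -0.45 ± 0.08 in the mean (adjusted p = 0.000126) but remained 0.35 ± 0.07 above untreated (adjusted p = 0.000296). The fusions differed at day 3 (adjusted p = 0.000432) and at day 5 against day 3 (adjusted p = 0.00317, F-tests in limma).

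Phgdh and Psat1 catalyse successive steps of serine synthesis from a glycolytic intermediate, and Psph the last. Phgdh with NUP98-DDX10 stood at 197, 258, 212 and 246 in the untreated libraries, 304, 294 and 255 at day 3 and 226, 296 and 268 at day 5. Under NUP98-JARID1A, Phgdh counted 210.3, 240.2, 219 and 266 untreated, 366, 299.8 and 492 at day 3 and 88.8, 101 and 105 at day 5. In NUP98-NSD1 cells, Phgdh had values of 169, 122, 159.9 and 86.9 untreated, 185, 214 and 241 at day 3 and 130.2, 84.7 and 96.4 at day 5. With NUP98-JARID1A every day 3 value exceeded, and every day 5 value fell short of, every untreated value. The mean log2 change of Phgdh was 0.57 ± 0.13 at day 3 (adjusted p = 0.0027), -0.46 ± 0.13 at day 5 (adjusted p = 0.00529) and -1.03 ± 0.14 from day 3 to day 5 (adjusted p = 4.73e-06, all limma). From day 3 to day 5 it was -1.93 with NUP98-JARID1A, -1.05 with NUP98-NSD1 and -0.12 with NUP98-DDX10, a difference with an adjusted p of 0.0113.

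Psat1 moved on a smaller scale. Psat1 with NUP98-DDX10 stood at 2553, 2792, 2875 and 2778 in the untreated libraries, 2942, 3382 and 3084 at day 3 and 2742, 3134 and 2797 at day 5. Under NUP98-JARID1A, Psat1 counted 2104, 2102, 1848 and 2217 untreated, 2566, 2548 and 3162 at day 3 and 2005, 1737 and 1163 at day 5. In NUP98-NSD1 cells, Psat1 had values of 1724, 1737, 1813 and 1640.4 untreated, 2790.3, 2861 and 2963 at day 3 and 2382, 2109 and 2237 at day 5. Day 3 values lay above untreated ones in all 3 models. The mean rise was 0.44 ± 0.09 at day 3 (adjusted p = 0.00083, limma), and from day 3 to day 5 it changed by -0.42 ± 0.10 (adjusted p = 0.00168). Psph did not pass limma in any mean comparison of doxycycline. Its change at day 5 was 0.51 ± 0.19 with NUP98-DDX10 and -0.46 ± 0.19 with NUP98-JARID1A, where it fell (adjusted p = 0.0466, limma, lost in 20 of the 33 fits), and the fusions differed (adjusted p = 0.0211, F-test, lost without NUP98-DDX10 day 5 replicate 2).

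Shmt2 converts serine to glycine in mitochondria and passes a one-carbon unit to folate. Shmt2 with NUP98-DDX10 stood at 3316, 3059.6, 2575 and 3001 in the untreated libraries, 3009.8, 3275 and 2861 at day 3 and 2712, 3005 and 2576 at day 5. Under NUP98-JARID1A, Shmt2 counted 2777, 2858, 3441 and 3594 untreated, 4746, 3986 and 4679 at day 3 and 1555, 2039.5 and 1886 at day 5. In NUP98-NSD1 cells, Shmt2 had values of 2336, 2364, 2593 and 2133 untreated, 3426, 3280.1 and 3578 at day 3 and 2579, 1733 and 2166 at day 5. With NUP98-JARID1A the 3 groups did not overlap and day 5 was lowest, with NUP98-NSD1 day 3 stood alone above both others, and with NUP98-DDX10 all overlapped. Averaged over the fusions, the log2 change was 0.36 ± 0.08 at day 3 (adjusted p = 0.00339), -0.35 ± 0.08 at day 5 (adjusted p = 0.00138) and -0.71 ± 0.09 from day 3 to day 5 (adjusted p = 2.1e-06, all limma). Mthfd1l, which releases formate from mitochondria, fell with NUP98-JARID1A at day 5 (-0.75 ± 0.12, adjusted p = 2.19e-05) and had a log2 change of 0.31 ± 0.12 there with NUP98-DDX10. Its day 5 effect differed between the fusions (adjusted p = 0.000226, F-test).

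**Figure D4:**
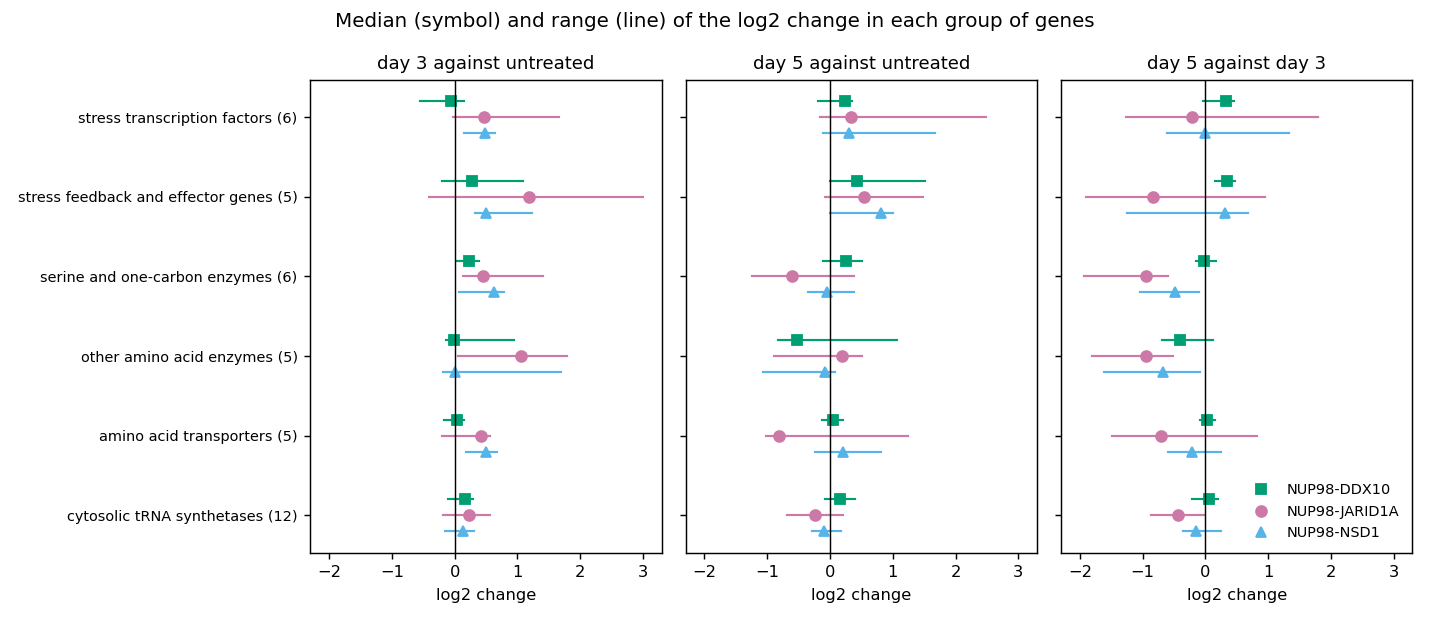
Median (symbol) and full range (line) of the log2 change over the genes of each role, for each fusion, in the 3 comparisons, with the number of genes in parentheses. For NUP98-JARID1A the median of the serine and one-carbon enzymes is 0.46 at day 3 and -0.61 at day 5, while for NUP98-DDX10 it is 0.23 and 0.26.

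Among the other amino acid enzymes, Pycr1 and Aldh18a1 act in proline synthesis, at its last and an early step. Pycr1 with NUP98-DDX10 stood at 89.8, 91.9, 61.2 and 70.02 in the untreated libraries, 133, 147 and 173 at day 3 and 142, 170.0 and 179 at day 5. Under NUP98-JARID1A, Pycr1 counted 34.4, 39.7, 55.3 and 26.1 untreated, 87.6, 97.4 and 105 at day 3 and 32.8, 47.2 and 51.2 at day 5. In NUP98-NSD1 cells, Pycr1 had values of 35.9, 58.2, 34.8 and 26.7 untreated, 49.8, 57.4 and 71.3 at day 3 and 58.1, 20.9 and 39.4 at day 5. With NUP98-DDX10 both doxycycline groups stood above untreated, whereas with NUP98-JARID1A only day 3 did. Pycr1 rose by 0.98 ± 0.18 at day 3 in the mean (adjusted p = 0.000407, limma) and changed by -0.57 ± 0.20 from day 3 to day 5 (adjusted p = 0.0321, lost in 6 of the 33 fits).

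Aldh18a1, at the head of the same pathway, did not pass the test at day 3. Aldh18a1 with NUP98-DDX10 stood at 1056, 888, 879 and 843 in the untreated libraries, 866, 853 and 793 at day 3 and 585, 707 and 611 at day 5. Under NUP98-JARID1A, Aldh18a1 counted 1279, 1296, 1273 and 1213 untreated, 1322, 1099.7 and 1533 at day 3 and 691, 731 and 616 at day 5. In NUP98-NSD1 cells, Aldh18a1 had values of 863, 731, 898 and 801 untreated, 665, 749.6 and 755 at day 3 and 483, 505 and 526 at day 5. Day 5 lay below both other groups in every model. Over the 3 fusions the log2 change was -0.09 ± 0.08 at day 3 (adjusted p = 0.513, limma), -0.71 ± 0.08 at day 5 (adjusted p = 5.81e-08) and -0.62 ± 0.09 from day 3 to day 5 (adjusted p = 7.27e-06). It fell at day 5 in each of the 3 fusions, the call in NUP98-DDX10 being lost in 2 of the 33 fits, and its effect was not shown to differ between them (adjusted p = 0.34, F-test).

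Asns makes asparagine and is a standard readout of ATF4 activity. Asns with NUP98-DDX10 stood at 22.5, 12.8, 19.4 and 40.7 in the untreated libraries, 21.3, 24.4 and 21.9 at day 3 and 7.68, 15.1 and 22.04 at day 5. Under NUP98-JARID1A, Asns counted 258, 253, 200.3 and 338 untreated, 434, 445 and 797 at day 3 and 426, 361 and 321 at day 5. In NUP98-NSD1 cells, Asns had values of 51.3, 24.4, 59.8 and 43.4 untreated, 92.1, 211 and 139.9 at day 3 and 61.4, 35.2 and 42.3 at day 5. With NUP98-JARID1A and NUP98-NSD1 every day 3 value exceeded every untreated and every day 5 value, and with NUP98-DDX10 the groups overlapped. The day 3 change was 1.69 ± 0.36 with NUP98-NSD1, 1.05 ± 0.36 with NUP98-JARID1A and 0.04 ± 0.36 with NUP98-DDX10, and 0.93 ± 0.21 in the mean (adjusted p = 0.00192, limma). These 3 effects had an adjusted p of 0.0916 for their difference. The change from day 3 to day 5 was -0.94 ± 0.22 (adjusted p = 0.00193), which left Asns at -0.02 ± 0.21 against untreated (adjusted p = 0.962).

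Cth, which makes cysteine, and Gpt2, a mitochondrial alanine transaminase, rose at day 3 with NUP98-JARID1A alone among the single fusions. Cth averaged 6.75 ± 2.8 (SD, n = 4) untreated, 27.9 ± 17.9 at day 3 and 6.98 ± 3.6 at day 5 (n = 3 each) in that model, and its day 3 effect of 1.79 ± 0.54 (adjusted p = 0.0232, limma) was lost in 3 of the 33 fits. Gpt2 averaged 123 ± 18.3, 253 ± 79.7 and 171 ± 13.2 there (day 3 adjusted p = 0.00221). The difference between the fusions at day 3 had an adjusted p of 0.175 for Cth and 0.0536 for Gpt2 in limma. DESeq2, the replicate block and the fit without the controls called both, and edgeR, a pseudocount of 10 and the filter at 100 also called Gpt2, so these calls depended on the fit.

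Slc7a5 and Slc3a2 encode the light and heavy chains of the exchanger that imports large neutral amino acids such as leucine. Slc7a5 with NUP98-DDX10 stood at 2636, 2407, 1983 and 2384 in the untreated libraries, 2677, 2737 and 2386 at day 3 and 2482, 3033 and 2646 at day 5. Under NUP98-JARID1A, Slc7a5 counted 1572, 1804, 2164 and 2461 untreated, 3304, 2138 and 2880.0 at day 3 and 877, 1110.2 and 934 at day 5. In NUP98-NSD1 cells, Slc7a5 had values of 1075, 1458, 1287 and 1198 untreated, 1929, 1974 and 2074 at day 3 and 1810.5, 965 and 1298 at day 5. Day 5 stood below both other groups with NUP98-JARID1A, and day 3 stood above both with NUP98-NSD1. Slc7a5 rose in the mean by 0.43 ± 0.13 at day 3 (adjusted p = 0.0207, limma, lost without NUP98-JARID1A day 3 replicate 1) and changed by -0.68 ± 0.14 from day 3 to day 5 (adjusted p = 0.000628). At day 5 it was -1.02 against untreated with NUP98-JARID1A, 0.21 with NUP98-DDX10 and 0.08 with NUP98-NSD1, which differed (adjusted p = 0.0081, F-test).

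The heavy chain moved less. Slc3a2 with NUP98-DDX10 stood at 1798, 1578, 1452 and 1697 in the untreated libraries, 1670.5, 1759 and 1568 at day 3 and 1702, 1759.8 and 1602 at day 5. Under NUP98-JARID1A, Slc3a2 counted 1268, 1184, 1479.6 and 1463 untreated, 2107, 1783 and 2059 at day 3 and 1041, 1424 and 1454 at day 5. In NUP98-NSD1 cells, Slc3a2 had values of 1062, 1184, 1285 and 1191 untreated, 1476, 1688 and 1556 at day 3 and 1422, 1254 and 1415 at day 5. Day 3 stood above the other groups with NUP98-JARID1A and NUP98-NSD1, and the groups overlapped with NUP98-DDX10. The mean rise of Slc3a2 at day 3 was 0.34 ± 0.11 (adjusted p = 0.0273, limma), lost without NUP98-JARID1A day 3 replicate 1 or day 3 replicate 2 of NUP98-NSD1 or NUP98-DDX10, and its change from day 3 to day 5 was -0.27 ± 0.11 (adjusted p = 0.0812).

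Slc7a1 imports arginine and other cationic amino acids. Slc7a1 with NUP98-DDX10 stood at 2216, 2030.4, 1848 and 2012 in the untreated libraries, 1933, 2052 and 1926 at day 3 and 1715, 2078 and 1787 at day 5. Under NUP98-JARID1A, Slc7a1 counted 1827, 2031, 2295 and 2567 untreated, 3136, 2406 and 2979 at day 3 and 1187, 1288 and 1208 at day 5. In NUP98-NSD1 cells, Slc7a1 had values of 1519.9, 1633, 1854 and 1609 untreated, 1753, 1866 and 1979 at day 3 and 1629, 1213 and 1374 at day 5. With NUP98-JARID1A day 5 lay below untreated and day 3, with NUP98-NSD1 it lay below day 3, and with NUP98-DDX10 all groups overlapped. The mean log2 change was 0.17 ± 0.11 at day 3 (adjusted p = 0.315, limma), -0.39 ± 0.11 at day 5 (adjusted p = 0.00531) and -0.57 ± 0.12 from day 3 to day 5 (adjusted p = 0.000818). Slc7a11, the cystine importer with a pair of elements in its promoter, did not pass limma in any comparison of doxycycline, and averaged 42.1 ± 12.5 untreated and 101 ± 31.3 at day 5 with NUP98-JARID1A. That day 5 difference passed with edgeR, with DESeq2, with the replicate block and without the controls, and in the mean of the fusions Slc7a11 passed at day 5 with DESeq2, with the block, without the controls and without NUP98-DDX10. The glutamine transporter gene Slc1a5 averaged 2588 ± 278 untreated, 2260.4 ± 456 at day 3 and 1375 ± 180.1 at day 5 in that model, against 1124 ± 91.7, 1583 ± 65.7 and 1462 ± 323 with NUP98-NSD1. Its day 5 effect differed between the fusions (adjusted p = 0.00102, F-test).

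The synthetases charge tRNAs with their amino acids, and their changes were small. Across the 12 genes the mean day 3 log2 change ran from -0.09 (Wars) to 0.34 (Gars). Gars, for glycine, led. Gars with NUP98-DDX10 stood at 2422, 2587, 2489.9 and 2461 in the untreated libraries, 2679, 2820.0 and 2901 at day 3 and 2954, 3435 and 3237 at day 5. Under NUP98-JARID1A, Gars counted 1928, 2156, 1909 and 1950.4 untreated, 2909, 2718 and 3172 at day 3 and 2362, 2230.4 and 1840.4 at day 5. In NUP98-NSD1 cells, Gars had values of 2431, 2172, 2419.6 and 2320.3 untreated, 2866, 2891 and 2762 at day 3 and 2798, 2549 and 2558 at day 5. Day 3 exceeded untreated without overlap in all 3 models, and day 5 exceeded day 3 with NUP98-DDX10 but fell below it with NUP98-JARID1A. The day 3 change was 0.17 ± 0.08 with NUP98-DDX10, 0.56 ± 0.08 with NUP98-JARID1A and 0.28 ± 0.08 with NUP98-NSD1, and 0.34 ± 0.05 in the mean (adjusted p = 9.82e-06, limma). At day 5 against day 3 the changes of 0.19, -0.46 and -0.11, in the same order, differed (adjusted p = 0.013, F-test).

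Nars, for asparagine, passed at both days in the mean. Nars with NUP98-DDX10 stood at 1677, 1792, 1767 and 1877 in the untreated libraries, 1845, 2040.4 and 2068 at day 3 and 2066, 2227 and 2021 at day 5. Under NUP98-JARID1A, Nars counted 2430.3, 2341, 2209 and 2317 untreated, 2692, 2488 and 3076 at day 3 and 2525, 2329 and 2324 at day 5. In NUP98-NSD1 cells, Nars had values of 2036, 1989, 2126 and 2024 untreated, 2241, 2346 and 2215 at day 3 and 2375, 2284 and 2229 at day 5. With NUP98-NSD1 both doxycycline groups lay above untreated, with NUP98-JARID1A only day 3 did, and with NUP98-DDX10 only day 5 did. Averaged over the fusions, the log2 change was 0.18 ± 0.04 at day 3 (adjusted p = 0.00324, limma) and 0.15 ± 0.04 at day 5 (adjusted p = 0.00499). The day 3 call was lost with titled days matched and without NUP98-JARID1A, and the day 5 call without NUP98-DDX10 and with quantile normalization.

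Iars, for isoleucine, rose and then fell below its start. Iars with NUP98-DDX10 stood at 1843, 1939.7, 1839 and 1838 in the untreated libraries, 2069.9, 2247 and 2098 at day 3 and 1766, 1987 and 1768 at day 5. Under NUP98-JARID1A, Iars counted 2154, 2231, 2063 and 2187 untreated, 2357, 2297 and 2976 at day 3 and 2116, 1824 and 1574 at day 5. In NUP98-NSD1 cells, Iars had values of 1952, 1712, 1908 and 1826 untreated, 2050.4, 2131 and 2049 at day 3 and 1682, 1579 and 1734 at day 5. Day 3 stood above both other groups in each of the 3 models. Over the 3 fusions the log2 change was 0.20 ± 0.05 at day 3 (adjusted p = 0.00939, limma), -0.34 ± 0.06 from day 3 to day 5 (adjusted p = 7.38e-05) and -0.14 ± 0.05 at day 5 (adjusted p = 0.0353, lost in 9 of the 33 fits).

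Yars, for tyrosine, was also highest at day 3 in the mean. Yars with NUP98-DDX10 stood at 767, 822, 680.5 and 847 in the untreated libraries, 697, 872 and 840.0 at day 3 and 731, 854 and 754 at day 5. Under NUP98-JARID1A, Yars counted 614, 696, 669 and 688 untreated, 836, 725 and 949 at day 3 and 466, 530.5 and 383 at day 5. In NUP98-NSD1 cells, Yars had values of 609.8, 634, 679 and 621 untreated, 787, 837 and 738 at day 3 and 596, 608 and 640.5 at day 5. It separated into 3 groups with NUP98-JARID1A, day 3 stood above both others with NUP98-NSD1, and all overlapped with NUP98-DDX10. The mean log2 change was 0.22 ± 0.07 at day 3 (adjusted p = 0.0285, lost in 5 of the 33 fits), -0.42 ± 0.08 from day 3 to day 5 (adjusted p = 0.000165) and -0.20 ± 0.07 at day 5 (adjusted p = 0.0256, lost in 2, all limma).

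Of the other synthetases, Cars (0.25, adjusted p = 0.0221, lost without NUP98-JARID1A day 3 replicate 3) and Sars (0.19, adjusted p = 0.035, lost in 7 of the 33 fits) rose at day 3 in limma. Eprs, Lars and Mars had log2 changes of -0.29, -0.26 and -0.23 from day 3 to day 5 and fell (adjusted p = 0.0151, 0.00421 and 0.0296, the last lost in 7 of the 33 fits). Aars, Tars and Wars did not pass limma in any mean comparison of doxycycline, with day 3 log2 changes of 0.05, 0.03 and -0.09. At day 5 the fusions differed for Tars (0.34 with NUP98-DDX10, -0.45 with NUP98-JARID1A and -0.20 with NUP98-NSD1, adjusted p = 0.00264, F-test) and for Lars (0.19, -0.45 and -0.17, adjusted p = 0.00752).

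Related gene lists were chosen like the members with earlier results known, and no list was tested against the shares of all genes. Those shares were 8.67% higher and 9.88% lower at day 3. At day 5 they were 22.6% and 23.4%, and from day 3 to day 5 they were 14.3% and 13.4%. The mean day 3 calls given below for Iars2, Eif2ak3, Eif2ak2, Bcat1, Cebpb, Sfxn1, Edem1, Calr and Hmox1 were lost without NUP98-JARID1A. Without NUP98-NSD1 those of Bcat1, Calr, Tyms and Sesn1 were lost, and that of Rraga was kept in both. From day 3 to day 5, the calls of Eef1e1, Aimp2, Farsa, Eif2b1 and Rragc were lost without NUP98-JARID1A. Of 11 other cytosolic synthetase and scaffold genes none passed at day 3 in limma (2 at an unadjusted p under 0.05, 0 with edgeR and with DESeq2), and 5 of the 11 fell from day 3 to day 5. They included Eef1e1 (-0.42 ± 0.10, adjusted p = 0.00281) and Aimp2 (-0.31 ± 0.06, adjusted p = 0.000188), both of the complex that holds synthetases together, and Farsa, for phenylalanine (-0.25 ± 0.06, adjusted p = 0.00231). Hars, for histidine, stood at 0.14 ± 0.07 at day 3 (adjusted p = 0.145). Of 17 mitochondrial synthetases 1 rose at day 3, Iars2 (0.27 ± 0.06, adjusted p = 0.00245), and 7 were lower at day 5, among them Tars2 (-0.41 ± 0.08, adjusted p = 0.000175) and Wars2 (-0.35 ± 0.08, adjusted p = 0.0011).

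Of 14 genes for eIF2, its kinases and its exchange factor eIF2B, 2 rose and 1 fell at day 3. Eif2ak3, the kinase PERK of the endoplasmic reticulum, rose by 0.30 ± 0.04 at day 3 and 0.61 ± 0.04 at day 5 (adjusted p = 5.59e-06 and 2.26e-12, limma). Eif2ak2, the kinase PKR that senses double-stranded RNA, had a log2 change of -0.54 ± 0.10 at day 3 and fell (adjusted p = 0.000381), and Eif2b1 of -0.16 ± 0.05 from day 3 to day 5 (adjusted p = 0.0254, lost in 5 of the 33 fits). Of 18 further genes linked to ATF4, 4 rose at day 3 and none fell (6 at an unadjusted p under 0.05, and 4 higher and 0 lower with edgeR and with DESeq2). Bcat1, which transaminates branched-chain amino acids, was 1.07 ± 0.26 at day 3 and -1.81 ± 0.28 from day 3 to day 5 (adjusted p = 0.0045 and 2.28e-05). Its counts were low, and it reached a normalized count of 10 in only 11 of the 33 libraries. Cebpb, another partner of ATF4, rose by 0.71 ± 0.18 at day 3 (adjusted p = 0.00544), and Niban1 rose by 0.82 ± 0.15 from day 3 to day 5 (adjusted p = 0.000135). With titled days matched none of these 18 passed at day 3 (3 at an unadjusted p under 0.05).

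Of 11 other folate and glycine enzymes, 1 rose and 1 fell at day 3, and 6 fell from day 3 to day 5. Sfxn1, the mitochondrial serine carrier, changed by -0.21 ± 0.06 at day 3 and -0.57 ± 0.06 at day 5 (adjusted p = 0.00755 and 2.34e-09, limma), in the opposite direction to Mthfd2 at both days. Tyms, thymidylate synthase, rose by 0.21 ± 0.06 at day 3 (adjusted p = 0.0112), and Mthfd1, a cytosolic folate enzyme, changed by -0.49 ± 0.08 from day 3 to day 5 (adjusted p = 6.24e-05). Of 17 genes of the unfolded protein response controlled by XBP1 and ATF6, 2 rose and 1 fell at day 3. Edem1, for disposal of misfolded glycoprotein, rose by 0.24 ± 0.05 and the chaperone gene Calr changed by -0.21 ± 0.06 (adjusted p = 0.00253 and 0.0118).

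Of 14 genes through which amino acids act on mTORC1, 1 rose, Rraga (0.34 ± 0.05, adjusted p = 1.38e-05, limma), and 2 fell at day 3. Sesn1, a relative of Sesn2, changed by -0.74 ± 0.17 at day 3 (adjusted p = 0.0025) where Sesn2 rose, and Rragc by 0.20 ± 0.07 from day 3 to day 5 (adjusted p = 0.0363, lost in 9 of the 33 fits). Of 11 NRF2 and glutathione genes 1 rose at day 3 and 6 at day 5. Hmox1, which breaks down heme, rose by 0.40 ± 0.13 at day 3 (adjusted p = 0.0272), a call lost in 5 of the 33 fits and a change of -0.0638 without NUP98-JARID1A. It rose by 1.37 ± 0.13 at day 5 (adjusted p = 1.16e-09), Nqo1 by 0.80 ± 0.26 (adjusted p = 0.0124) and Gsr by 0.62 ± 0.20 at day 5 (adjusted p = 0.0134). Nqo1 reached a normalized count of 10 in only 6 of the 33 libraries, and its day 5 call was lost without NUP98-JARID1A. That of Gsr was lost without NUP98-DDX10, without NUP98-JARID1A and with quantile normalization.

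Against the control libraries, the untreated leukemias split the set by role. In the mean of the fusions 20 members were higher and 13 lower than in the 3 controls, while 31.8% of all genes were higher and 38.9% lower. All 6 transcription factors but Atf5, and all 5 effectors but Sesn2, were lower, whereas 5 of 6 serine enzymes and 9 of 12 synthetases were higher. The differences ranged from -3.14 ± 0.30 for Asns, which averaged 579 ± 179.8 (SD, n = 3) in the controls, 23.8 ± 11.9 with NUP98-DDX10, 262 ± 56.6 with NUP98-JARID1A and 44.7 ± 15.1 with NUP98-NSD1 (n = 4 each), to 1.997 ± 0.12 for Shmt2. Both passed the limma test (adjusted p = 3.97e-10 and 6.46e-14). Asns was thus lower, and Psat1 (1.52 ± 0.13), Pycr1 (1.65 ± 0.27) and Aldh18a1 (1.16 ± 0.12) higher, in the leukemias (adjusted p = 5.72e-11, 4.74e-06 and 1.96e-09). The effectors Trib3 (-2.39 ± 0.36), Chac1 (-2.19 ± 0.36) and Ppp1r15a (-2.08 ± 0.35) were lower (adjusted p = 1.22e-06, 4.48e-06 and 6.31e-06).

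The controls differ from the leukemias in cell makeup, which cannot be told apart from the level of the fusion transcript here. All 8 neutrophil markers were lower in the leukemias, and the erythroid, B cell and T cell sums above were far higher in the controls. Leaving out control replicate 3 turned the difference of Slc3a2 from -0.37 (adjusted p = 0.0349) to 0.0416 (adjusted p = 0.74, limma). Of the 33 calls, 25 held in every fit with 1 library left out, and 8 did not. Atf3, Ddit4 and Eprs were lost without control replicate 2, Cebpg and Lars without control replicate 1 or 2, Cth and Slc3a2 without control replicate 3, and Nars in 25 of the 33 fits.

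**Figure D5:**
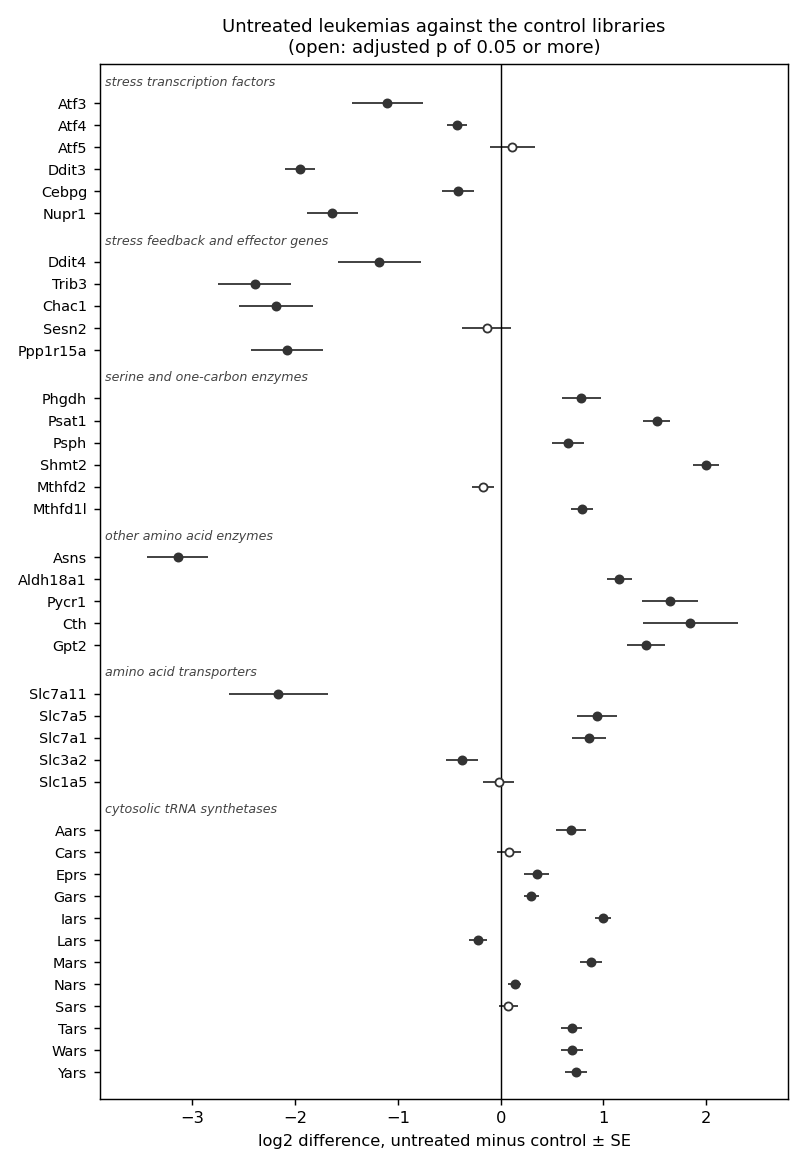
Log2 difference, untreated leukemias (mean of the 3 fusions) minus the 3 control libraries, with the standard error as bars, for each of the 39 genes, open where the adjusted p is 0.05 or more. The serine enzymes other than Mthfd2 and most synthetases lie to the right of 0, and most transcription factors and effectors to the left, with Asns furthest left.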

How the data were processed

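RNA libraries (33 in 10 groups) were stranded, poly-A selected and made at a facility, per the labels' protocols. The submitters' processing notes name FastQC, STAR, SAMtools, featureCounts and DESeq2, without versions, and the builds GRCm38 and mm10. The authors deposited counts divided by size factors, here called normalized counts (unit: signal). Each was a whole multiple of 1 read's worth within 0.01, so reads could be recovered. The 2 chromatin samples were not analysed here.

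The 39 members, the other gene lists and the tests were chosen with earlier results of these data known. Genes with a normalized count of at least 10 in 3 libraries were kept (12682 genes and 5 construct rows). limma 3.58.1 in R 4.3.3 (trend, log2 of value + 1, 10 group means) gave log2 fold changes, standard errors (SE) and p-values, which were adjusted over all kept features (Benjamini-Hochberg, threshold 0.05). F-tests compared fusions. Values of every library are given for Atf4 and, in each role, for the 2 members with the smallest p at day 3 and the 2 with the smallest p at day 5 against day 3, in the mean of the fusions. The same rule named genes of the other lists, of which 1 is not reported here. Alternatives were edgeR 4.0.16 and DESeq2 1.42.0 on recovered reads, pseudocounts, filters, quantile normalization, titled days matched, a replicate block, and leaving out libraries, controls or a fusion. The procedure was tested on simulated data.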

Additional observations from a re-analysis of the deposited data

Results flagged for a closer look

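The doxycycline effect at day 3 differed between the fusions (limma F-test, adjusted p over all genes) for Mthfd2 (0.000432), Nupr1 (0.00358), Trib3 (0.0224), Atf5 (0.0237) and Atf4 (0.0455). At day 5 it differed for Nupr1 (0.000118), Mthfd1l (0.000226), Slc1a5 (0.00102), Tars (0.00264), Phgdh (0.00476), Lars (0.00752), Slc7a5 (0.0081), Eprs (0.0197), Shmt2 (0.0205), Psph (0.0211), Sesn2 (0.0215), Yars (0.032) and Psat1 (0.0353). For day 5 against day 3 it differed for Mthfd2 (0.00317), Phgdh (0.0113), Gars (0.013), Shmt2 (0.0132), Mthfd1l (0.0156), Atf4 (0.0237), Slc7a5 (0.0321) and Yars (0.0378).

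Among 117 groups of 4 libraries, 5 held a library far from the others, and chance gives about 1 in 20 such groups. Ppp1r15a stood at 110.3 in NUP98-NSD1 untreated replicate 1, against 159.5 to 167.03 in the other libraries of its group. Cth stood at 9.707 in NUP98-DDX10 untreated replicate 3, against 6.62 to 7.15. Gars stood at 2156 in NUP98-JARID1A untreated replicate 2, against 1909 to 1950.4. Iars stood at 1940.0 in NUP98-DDX10 untreated replicate 2, against 1838 to 1843. Wars stood at 1889 in NUP98-NSD1 untreated replicate 4, against 1656 to 1666.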

How the results depend on the processing

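Counts are members past the adjusted p of 0.05. At day 3 the mean of the fusions gave 23, with 10 when titled days were matched, 7 without NUP98-JARID1A and 12 without NUP98-NSD1. NUP98-DDX10 gave 0, and 1 with DESeq2. NUP98-JARID1A gave 17, and 7 with titled days matched. NUP98-NSD1 gave 8, with 1 when titled days were matched and 14 without the controls. At day 5 the mean gave 17, and 9 without NUP98-JARID1A. NUP98-DDX10 gave 8, with 5 under no filter and 2 with titled days matched. NUP98-NSD1 gave 4, with 9 without the controls and 9 with the replicate block. For day 5 against day 3 the mean gave 20, with 5 without NUP98-JARID1A and 13 without NUP98-NSD1, and NUP98-DDX10 gave 0, with 1 without the controls. The tests between fusions gave 5 at day 3 (10 with DESeq2, 3 with titled days matched, 12 without the controls, 9 with the block), 13 at day 5 (7 with titled days matched) and 8 for day 5 against day 3 (13 without the controls). Calls over all 12682 genes moved too. In the mean they went from 2353 to 1017 without NUP98-JARID1A and 1588 without NUP98-NSD1 at day 3. At day 5 they went from 5833 to 3800 without NUP98-JARID1A. For day 5 against day 3 they went from 3511 to 1383 without NUP98-JARID1A and 2025 without NUP98-NSD1. Without the controls they went from 1157 to 2067 with NUP98-NSD1 at day 3 and from 3223 to 4191 at day 5. The cause of these moves was not tested.

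Leaving out 1 library at a time gave, in the order mean, NUP98-DDX10, NUP98-JARID1A and NUP98-NSD1, 18 to 26, 0 to 0, 9 to 24 and 4 to 14 at day 3, 14 to 23, 2 to 11, 15 to 22 and 2 to 9 at day 5, and 17 to 27, 0 to 1, 16 to 31 and 0 to 14 for day 5 against day 3. It gave 27 to 33 for untreated against control, and 2 to 12, 10 to 18 and 5 to 14 for the tests between fusions.

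3 values changed sign. Without NUP98-JARID1A the mean day 3 change was -0.0288 for Nupr1 and -0.0638 for Hmox1 (adjusted p = 0.962 and 0.857, limma). Leaving out 1 library at a time gave -0.66 to 0.0416 for Slc3a2 against control, the latter without control replicate 3 (adjusted p = 0.74). Whether the labels' numbers pair the libraries is not settled. Of 27 pairs with the same number, 5 had a correlation over 0.1 (range -0.377 to 0.247). All 5 set day 5 against untreated libraries titled day 5, with NUP98-JARID1A (0.141, 0.167 and 0.237) and NUP98-NSD1 (0.135 and 0.247). The remaining NUP98-NSD1 pair of that kind gave 0.0096, and those of NUP98-DDX10 gave -0.143 to -0.0056. Pairs with unlike numbers reached 0.369. With the replicate block the mean counts were 24 at day 3, 20 at day 5 and 24 for day 5 against day 3.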
